A study of Arabidopsis thaliana with 36 samples.

Results

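The 10 genes described here encode DREB proteins, a branch of the plant AP2/ERF family of transcription factors. They are CBF1 (AT4G25490), CBF2 (AT4G25470), CBF3 (AT4G25480), CBF4 (AT5G51990), DDF1 (AT1G12610), DDF2 (AT1G63030), DREB2A (AT5G05410), DREB2B (AT3G11020), DREB26 (AT1G21910) and AT1G33760. They were chosen by locus, and each locus was matched to the locus given for a probe set in the array annotation that the authors deposited. Each of the 10 loci had 1 probe set of its own, so 10 of the 22746 probe sets tested belong to these genes. All 10 loci are protein coding genes in the RefSeq annotation of TAIR10.1, where CBF3 carries the symbol DREB1A and CBF2, CBF3 and CBF1 are neighbouring coding loci. The sequences of these 3 genes are alike, and whether their probe sets share signal was not tested.

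DREB proteins bind a short element, called the dehydration responsive element or C-repeat, in the promoters of cold and drought genes. Transcripts of CBF1, CBF2 and CBF3 accumulate quickly and transiently when Arabidopsis is chilled, and also after touch, and the proteins switch on the cold regulated COR genes. DREB2A acts in dehydration and heat, where its protein also has to be stabilized, and DDF1 acts in salt stress and lowers the level of active gibberellin.

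Transcripts were measured on 36 Affymetrix ATH1 arrays from 12 day old Arabidopsis seedlings grown on vertical agar plates in a spaceflight chamber, the ABRS unit on the International Space Station (FLT), or in the same type of unit in a ground chamber that simulated the station environment (GC). Leaves, hypocotyls and roots, dissected from the same pools of plants, gave 5 FLT and 5 GC arrays per organ, and whole plants gave 3 FLT and 3 GC arrays. The plants carried GFP reporters (Adh::GFP, DR5::GFP or a reporter under the constitutive 35S promoter), and both environments used the same lines and RNAlater fixation. The organ samples are labelled as 60% WS and 40% Col-0 plants and the whole plants as WS, so cultivar cannot be told apart from the difference between organs and whole plants. In each environment plate 2 gave 1 pool of dissected plants and plates 4 and 6 gave 2 each, and each of these plates gave 1 whole plant array. Replicate 1 of an organ is the pool of plate 2, replicates 2 and 3 are those of plate 4 and replicates 4 and 5 those of plate 6. A plate position holds 1 plate per environment, there was no flight centrifuge, and the ground run followed the flight with a delay, so microgravity cannot be told apart from other differences between the chambers. Pools from 1 plate shared agar and harvest, and p-values measure only the spread between these arrays.

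The values are MAS5 signals, which are summaries of probe brightness on a linear scale, and differences are given as log2 FLT over GC with the standard error (SE) from limma. Signals of different probe sets are set against each other only for a detection floor taken in roots and to mark low-signal probe sets. The trimmed mean of every array was scaled to the same level by the authors. The summed signal of 6 leaf marker genes was 128848 to 179490 in FLT leaves and 152034 to 195517 in GC leaves, against 4973 to 11925 in FLT roots and 4504 to 10373 in GC roots, and that of 8 root marker genes was 2890.0 to 4503 in FLT roots and 2672 to 9613 in GC roots, against 169 to 224 in FLT leaves and 116 to 363 in GC leaves. In both environments leaves thus had the higher sum of leaf markers and roots that of root markers. Between FLT and GC roots, 6 of the 8 root markers had a log2 fold change below 0, with LRX1 at -1.15, PRP3 at -1.02 and IRT1 at -1.52 and a median of -0.72, and 0 met the thresholds that the study used, an unadjusted p under 0.01 and a change of at least 1.9-fold. The part of root cell makeup in the root results was not tested. Within an organ, fewer cells expressing a gene and less RNA per cell cannot be told apart.

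After Benjamini-Hochberg adjustment over all probe sets, none of the 10 genes differed between FLT and GC at an adjusted p under 0.05 in any organ or in whole plants (limma), against 0% of all probe sets in roots and leaves and 0.0044% in hypocotyls and whole plants. At an unadjusted p under 0.05, 6 of the 10 were higher in FLT roots (4.37% of all probe sets), 2 in FLT hypocotyls (3.15%), 0 in FLT leaves (2.26%) and 0 in FLT whole plants (2.79%). At the study's thresholds, applied to limma, 6 of the 10 were higher in FLT roots, against 1.06% of all probe sets. These were CBF1, CBF2, DDF1, DREB2A, DREB26 and AT1G33760. MAS5 called AT1G33760 present on 0 of 5 FLT and 0 of 5 GC root arrays, and DDF1 on 0 of 5 GC root arrays. Both are in the root counts and in the root median below. With an offset added to all signals 5 were called, without AT1G33760. At the same thresholds 1 gene, DREB2A, was higher in FLT hypocotyls (0.422% of all probe sets), and 0 in FLT leaves (0.281%) and 0 in FLT whole plants (0.62%). None of the 10 was lower at these thresholds, against 0.264% of all probe sets in roots, 0.339% in hypocotyls, 0.84% in leaves and 0.299% in whole plants. The median log2 fold change over the 10 genes was 1.48 in roots, 1.25 in hypocotyls, 0.57 in leaves and 1.22 in whole plants, where the median over all probe sets was 0.00, -0.01, -0.07 and -0.01.

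**Figure D1:**
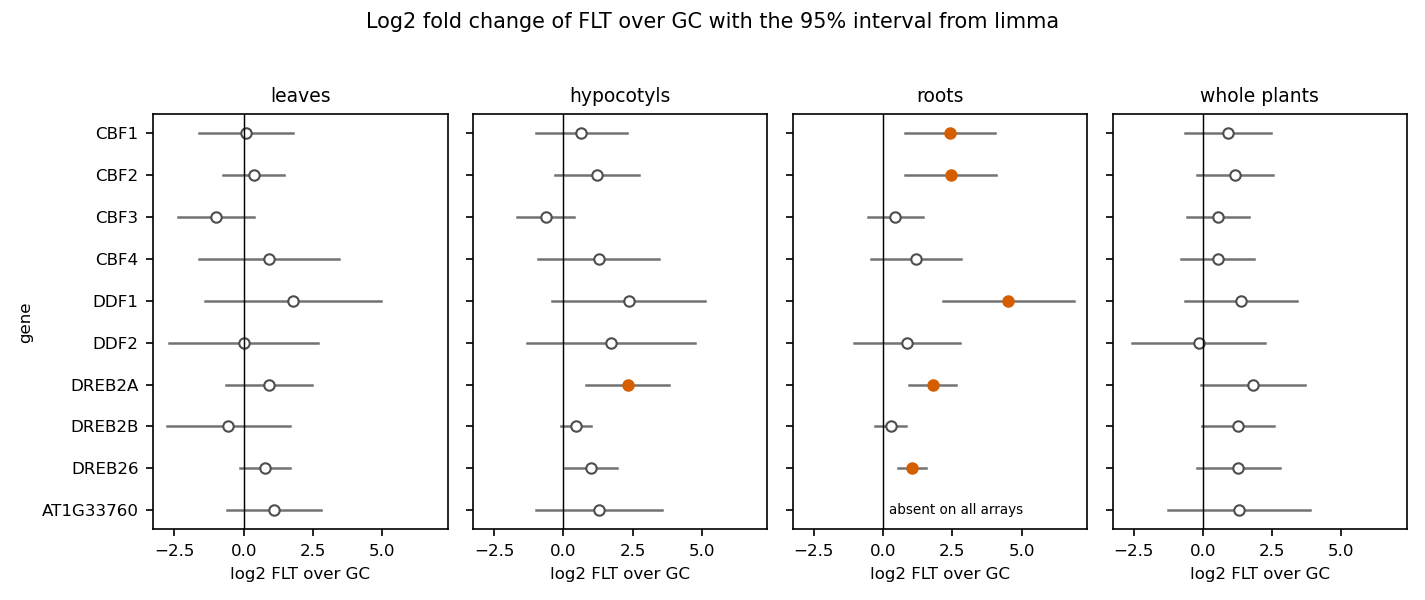
Log2 fold change of FLT over GC (horizontal axis) for each of the 10 genes, in leaves, hypocotyls and roots (5 FLT and 5 GC arrays each) and in whole plants (3 each); lines are 95% intervals from limma, and filled points had an unadjusted p under 0.01 and at least 1.9-fold. The filled points are CBF1, CBF2, DDF1, DREB2A and DREB26 in roots and DREB2A in hypocotyls; DDF1 in roots is a fitted value against GC arrays on which it was called absent, and AT1G33760 in roots is not drawn because MAS5 called it absent on all 10 root arrays.

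CBF1, CBF2 and CBF3 are the cold induced group, and in roots the first pair was higher in mean in FLT while CBF3 did not pass. In roots, CBF1 had signals of 186 on the FLT array of plate 2, 866 and 702 on those of plate 4 and 716 and 913 on those of plate 6, against 108 on the GC array of plate 2, 27.4 and 62.4 on those of plate 4 and 334 and 277 on those of plate 6. CBF2 had 638 on the FLT root array of plate 2, 1662 and 2105 on those of plate 4 and 2503 and 3024 on those of plate 6, against 291 on the GC root array of plate 2, 119 and 111 on those of plate 4 and 1036 and 919.9 on those of plate 6. In both genes 4 of 5 FLT arrays lay above all GC arrays, and the FLT array of plate 2 lay below both GC arrays of plate 6. The mean signal of CBF1 was 677 ± 289 (SD, n = 5) in FLT roots and 162 ± 136 (SD, n = 5) in GC roots, and that of CBF2 was 1986 ± 906 (SD, n = 5) and 495 ± 448 (SD, n = 5). The log2 fold change was 2.42 for CBF1 (SE 0.73, 95% interval 0.78 to 4.05) and 2.44 for CBF2 (SE 0.73, 0.80 to 4.07), each with an adjusted p of 0.448 from limma. Both calls at the study's thresholds were lost when any of 7 of the 10 root arrays was left out (FLT replicates 2 to 5 and GC replicates 1 to 3). Over all 10 omissions the log2 fold change was 1.91 to 2.83 for CBF1 and 2.05 to 2.85 for CBF2. CBF3 had 177 to 568 in FLT roots and 96.1 to 423 in GC roots, and its log2 fold change of 0.44 (SE 0.44, -0.55 to 1.42) did not pass.

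In leaves and hypocotyls the direction of CBF1 and CBF2 depended on the plate. On plate 2, CBF1 had a signal of 133 in FLT leaves and 881 in GC leaves, and 321 in FLT hypocotyls and 1304 in GC hypocotyls. On plate 4 it had 861 and 797 in FLT leaves against 228 and 317 in GC leaves, and 2277 and 2912 in FLT hypocotyls against 456 and 285 in GC hypocotyls. On plate 6 the environments were close, with 1404 and 1264 in FLT leaves against 1322 and 1443 in GC leaves, and 2059 and 1215 in FLT hypocotyls against 2129.8 and 1557 in GC hypocotyls. CBF1 was thus lower in FLT on plate 2, higher in FLT on plate 4 and overlapping on plate 6. Its log2 fold change over all arrays, 0.08 in leaves (SE 0.76) and 0.65 in hypocotyls (SE 0.74), averaged these, and in leaves it was -0.039 with the plate as a random block and -0.39 on plate means.

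CBF2 followed the same order of plates. It had 1059 on the FLT leaf array of plate 2, 3859 and 3693 on those of plate 4 and 4127 and 4085 on those of plate 6, against 2629, 1366 and 1363, and 2732 and 5216 on the GC leaf arrays of the same plates. In hypocotyls it had 890.3 on the FLT array of plate 2, 4514 and 5858 on those of plate 4 and 6545 and 5401 on those of plate 6, against 2094 on the GC array of plate 2, 1148 and 542 on those of plate 4 and 3931 and 2402 on those of plate 6. The FLT arrays of plates 4 and 6 exceeded all GC arrays in hypocotyls, and the FLT array of plate 2 lay below 4 of 5 GC arrays there and below all of them in leaves. The log2 fold change of CBF2 was 0.37 in leaves (SE 0.49) and 1.22 in hypocotyls (SE 0.67), with adjusted p-values of 0.869 and 0.82 from limma.

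CBF3 went the other way in mean in leaves and hypocotyls, without passing a test. It had 24.1 on the FLT leaf array of plate 2 and 112 to 182 on the other FLT leaf arrays, against 144 to 201 on 4 GC leaf arrays and 568 on 1 GC array of plate 6. In hypocotyls it had 137 on the FLT array of plate 2 and 385 to 679 on the other FLT arrays, against 373 to 887 on the GC arrays. The log2 fold change was -0.99 in leaves (SE 0.61, -2.37 to 0.38) and -0.63 in hypocotyls (SE 0.46, -1.67 to 0.40), so a change of either sign lies within the intervals. CBF4, which responds to drought and abscisic acid, had low signals in all 3 organs, 17.8 to 153 in FLT leaves against 3.80 to 129 in GC leaves, 27.1 to 154 in FLT hypocotyls against 2.42 to 77.9 in GC hypocotyls, and 27.8 to 72.3 in FLT roots against 3.59 to 58.2 in GC roots. It lay among the lowest 40% of probe sets by mean log2 signal in each organ and in whole plants, and its log2 fold changes of 0.54 to 1.28 did not pass. The 25th percentile of signals was 68.9 on the GC leaf array of plate 2 and 32.9 to 45.6 on the other GC leaf arrays, and low-signal genes such as CBF4 (83.7) and DDF2 (64.5) were above both plate 4 arrays there.

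DDF1 had low signals on 1 FLT plate and on 1 or more GC plates, depending on the organ, and higher signals on the others. In roots it had 19.7 on the FLT array of plate 2, 384 and 248 on those of plate 4 and 455 and 468 on those of plate 6, against 12.9 on the GC array of plate 2, 3.57 and 2.20 on those of plate 4 and 41.4 and 14.9 on those of plate 6. MAS5 called DDF1 present on 4 of 5 FLT root arrays and on 0 of 5 GC root arrays. A detection floor was taken on each GC root array from 301 probe sets that the authors listed and called present on all 5 of them. It was their lowest signal, 56.9 to 99.5. With GC signals raised to this floor, DDF1 was 2.63-fold higher in FLT roots, which is no strict bound. The FLT array of plate 2 lay below the floor and was kept as measured. The adjusted p of DDF1 was 0.308 (limma) for the measured means (315 ± 187 in FLT roots and 15.0 ± 15.8 in GC roots, SD, n = 5 each). Its call at the study's thresholds stayed when any 1 of the 10 root arrays was left out and was lost on plate means.

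In hypocotyls DDF1 had 22.3 on the FLT array of plate 2, 794 and 598 on those of plate 4 and 959 and 548 on those of plate 6, against 173 on the GC array of plate 2, 17.2 and 13.9 on those of plate 4 and 186 and 207 on those of plate 6. In leaves it had 28.8 on the FLT array of plate 2, 198 and 206 on those of plate 4 and 479 and 731 on those of plate 6, against 150.5 on the GC array of plate 2, 10.4 and 4.84 on those of plate 4 and 357 and 328 on those of plate 6. On plates 4 and 6 FLT exceeded GC in both organs, and on plate 2 FLT was the lower of the pair. The log2 fold change was 2.35 in hypocotyls (SE 1.23, -0.41 to 5.12) and 1.77 in leaves (SE 1.41, -1.40 to 4.94). Without the FLT hypocotyl array of plate 2 DDF1, CBF2 and DREB26 also met the study's thresholds in hypocotyls, so that 4 of the 10 genes did. Over all omissions of 1 hypocotyl array, 77 to 139 of all probe sets were higher in FLT at these thresholds. DDF2, the closest relative of DDF1, was among the low-signal probe sets in each organ, with 3.51 to 68.1 in FLT leaves against 2.48 to 64.5 in GC leaves and 2.92 to 82.9 in FLT roots against 3.84 to 13.9 in GC roots. In hypocotyls DDF2 had 90.5 to 139 on the FLT arrays of plates 4 and 6, against 8.20 to 75.3 on the GC arrays of these plates, and 2.43 in FLT and 2.57 in GC on plate 2.

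DREB2A, the main dehydration and heat regulator of the group, met the study's thresholds in both roots and hypocotyls. In roots it had 391 on the FLT array of plate 2, 1395 and 1665 on those of plate 4 and 1079 and 1389.9 on those of plate 6, against 303 on the GC array of plate 2, 238 and 273 on those of plate 4 and 328 and 437 on those of plate 6. The GC root arrays lay close together, and only the FLT array of plate 2 overlapped them. The mean was 1184 ± 489.6 (SD, n = 5) in FLT roots and 316 ± 75.7 (SD, n = 5) in GC roots, and the log2 fold change was 1.78 (SE 0.38, 0.93 to 2.63; adjusted p = 0.263, limma). Without the FLT root array of plate 2 it was 2.14 with an adjusted p of 0.0309, and with plate 2 left out in both environments it was again 2.14, with an adjusted p of 0.0896.

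In hypocotyls DREB2A had 221 on the FLT array of plate 2, 913 and 1528 on those of plate 4 and 995 and 1564 on those of plate 6, against 303 on the GC array of plate 2, 99.3 and 57.2 on those of plate 4 and 293 and 297 on those of plate 6. Here 4 of 5 FLT arrays exceeded all GC arrays, and the FLT array of plate 2 lay below 3 of them. The log2 fold change was 2.33 (SE 0.67, 0.83 to 3.82; adjusted p = 0.703, limma), and it fell short of the study's thresholds when any of 6 arrays was left out (FLT replicates 2 to 5 and GC replicates 2 and 3), and over all 10 omissions it was 1.93 to 2.82. The call was also lost with the methods' t-test, with a replicate block, with plate as a random block and on plate means. In leaves DREB2A had 177 on the FLT array of plate 2, 506 and 414 on those of plate 4 and 632 and 996 on those of plate 6, against 501 on the GC array of plate 2, 112 and 69.6 on those of plate 4 and 507 and 484 on those of plate 6, and the log2 fold change of 0.92 (SE 0.69, -0.63 to 2.47) did not pass. DREB2B, its nearest relative here, varied less in roots and hypocotyls, with 55.7 to 116 in FLT roots against 41.5 to 94.2 in GC roots, and 51.0 to 133 in FLT hypocotyls against 59.9 to 78.8 in GC hypocotyls. Its log2 fold change was 0.27 in roots (SE 0.25, -0.30 to 0.84) and 0.45 in hypocotyls (SE 0.24, -0.08 to 0.98). In leaves it spread widely, from 5.66 to 183 in FLT and from 14.7 to 149.8 in GC.

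DREB26, an activator of the same subfamily, and DREB2A were called present by MAS5 on all 10 root arrays. In roots DREB26 had 579 on the FLT array of plate 2, 619.8 and 1121 on those of plate 4 and 822 and 1054 on those of plate 6, against 307 on the GC array of plate 2, 350.2 and 445 on those of plate 4 and 399 and 499.6 on those of plate 6. All FLT root arrays lay above all GC root arrays, which held for 2 of the 10 genes (DREB26 and AT1G33760) and for 1.07% of all probe sets. AT1G33760 was called absent on all 10 root arrays, so of the pair only DREB26 had detected signals there. The same order held for 0 of the 10 in leaves (0.51%) and in hypocotyls (0.528%). The difference of DREB26 in roots was alike within plates, 0.92 on plate 2, 1.08 on plate 4 and 1.06 on plate 6 on the log2 scale. It was 1.04 over all arrays (SE 0.23, 0.52 to 1.56, adjusted p = 0.292, limma). The call was lost without FLT roots replicate 3, where the log2 fold change was 0.92. With limma's trend and robust settings the adjusted p of DREB26 in roots was 0.0302, and DREB2A reached 0.035 when low-signal probe sets were left out.

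In hypocotyls DREB26 had 272 on the FLT array of plate 2 and 704 to 1189 on the other FLT arrays, against 276 to 544 on the GC arrays. The log2 fold change was 1.01 (SE 0.42, 0.07 to 1.94). In leaves its highest signals were the FLT arrays of plate 4, 4339.8 and 3419, against 1005 and 833 on the GC arrays of plate 4, while plates 2 and 6 had 1061 to 1707 in FLT and 1303 to 1544 in GC. AT1G33760, a DREB subfamily gene without a symbol in the annotation, was also higher on plate 4 in FLT leaves, with 946 and 863 in FLT against 61.9 and 67.0 in GC, and in FLT hypocotyls, with 457 and 365 in FLT against 32.3 and 9.22 in GC. In leaves of plate 2 it had 199 in FLT and 286 in GC, and in those of plate 6 it had 196 and 348 in FLT against 574 and 353 in GC, so that FLT was lower on both plates. In roots AT1G33760 had 3.22 to 39.8 in FLT and 0.82 to 2.71 in GC, and as MAS5 called it present on 0 of 5 FLT and 0 of 5 GC root arrays, no fold is given for its call there. No detection calls were used here for the other 6 genes.

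**Figure D2:**
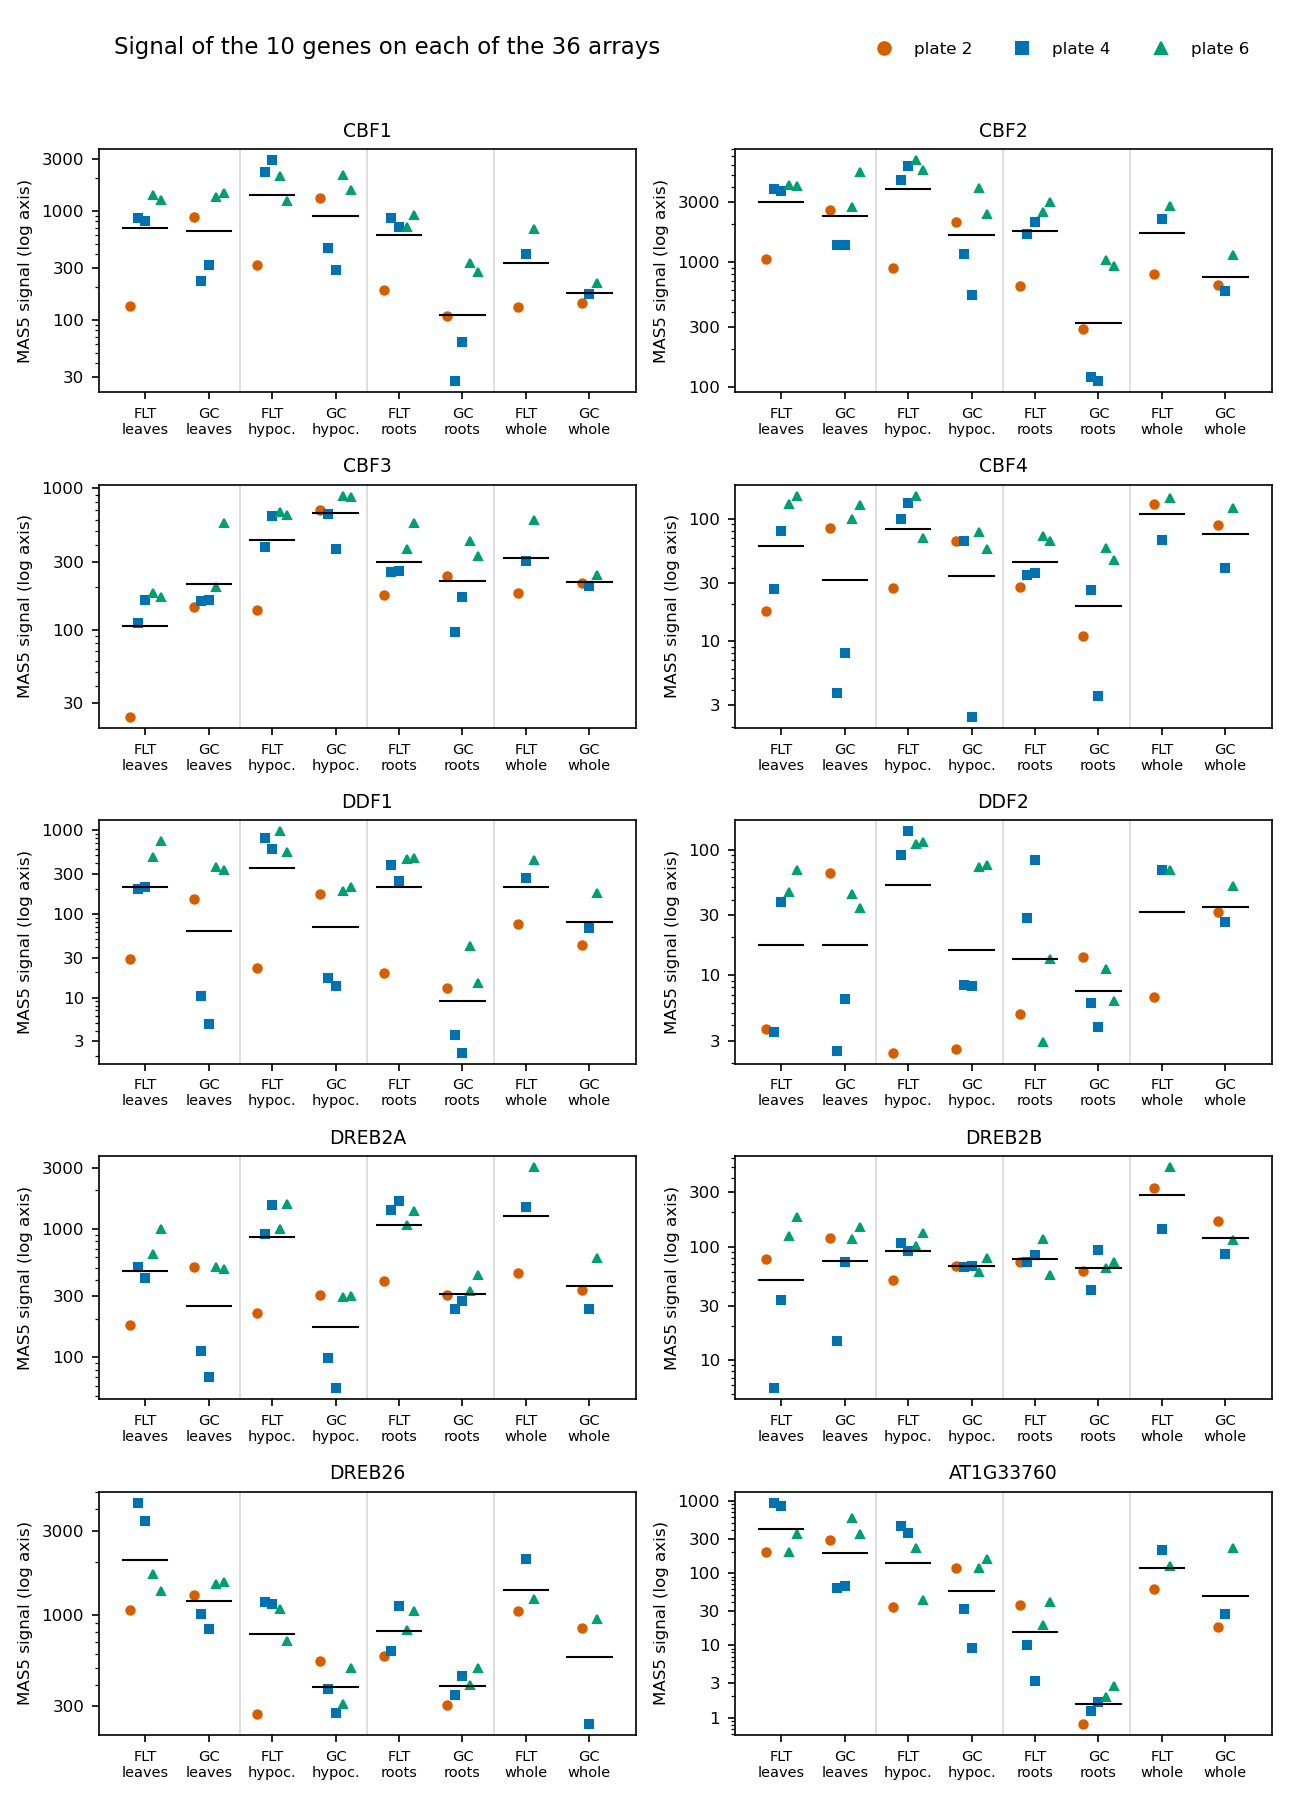
MAS5 signal (log axis) of the 10 genes on each of the 36 arrays, FLT left of GC for leaves, hypocotyls (hypoc.), roots and whole plants; each mark is 1 array, its colour and shape give the plate, and the black bar is the geometric mean. In leaves and hypocotyls the FLT circle of plate 2 and the GC squares of plate 4 are the lowest marks of their groups for CBF1, CBF2, DDF1 and DREB2A.

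Whole plants, which came from the same plate positions but are labelled WS only, gave 1 array per plate. DREB2A had 451, 1488 and 3029 in FLT whole plants of plates 2, 4 and 6, against 332, 236 and 598 in GC whole plants. CBF2 had 797, 2200.1 and 2831 in FLT whole plants of plates 2, 4 and 6, against 657, 585 and 1137 in GC. DDF1 had 76.4, 268 and 443 in FLT whole plants and 42.1, 68.4 and 176 in GC. In these 3 genes FLT was higher than GC on every plate, but the FLT plants of plate 2 lay below the GC plants of plate 6. DREB26 had 1050.0, 2082 and 1222 in FLT whole plants, against 837, 238 and 940.2 in GC. It was the only 1 of the 10 genes whose FLT whole plant arrays all lay above the GC arrays, which held for 4.96% of all probe sets. CBF1 had 131, 400.1 and 683 in FLT whole plants of plates 2, 4 and 6, against 142, 171 and 219 in GC, and CBF3 had 181, 305 and 594 in FLT against 213, 203 and 242 in GC. DREB2B had 326, 143 and 501 in FLT whole plants and 168, 86.8 and 114 in GC, so that in FLT its lowest array was that of plate 4. The log2 fold changes in whole plants ran from -0.15 for DDF2 to 1.81 for DREB2A (SE 0.76, -0.06 to 3.69), 9 of the 10 were above 0, and the smallest adjusted p was 0.966 (limma).

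Within plates, the difference between FLT and GC took different sizes and signs. In leaves, 0 of the 10 genes were higher in FLT on plate 2, 8 on plate 4 and 7 on plate 6, with median log2 differences of -1.87, 1.85 and 0.15. In hypocotyls, 0, 9 and 7 were higher in FLT on plates 2, 4 and 6, with medians of -1.25, 3.01 and 0.70. In roots, 8, 10 and 9 were higher in FLT, with medians of 0.70, 2.29 and 1.23, and in whole plants 7, 10 and 9, with medians of 0.39, 1.63 and 1.304. The medians over all probe sets lay between -0.13 and 0.09 on every plate. The share of all probe sets higher in FLT ran from 38.5% in leaves of plate 4 to 56% in roots of plate 2. The root counts and medians include AT1G33760, which was called absent on all root arrays. The signed median was highest on plate 4 and lowest on plate 2 in each organ and in whole plants, and in leaves the medians of these plates lay about equally far from 0. On plate 4 in hypocotyls the log2 difference was 5.48 for DDF1, 3.97 for DREB2A, 2.84 for CBF1 and 2.70 for CBF2, and on plate 2 it was -2.95 for DDF1, -0.46 for DREB2A, -2.02 for CBF1 and -1.23 for CBF2. The size of the DDF1 difference on plate 4 depends on how its low GC signals of 17.2 and 13.9 are treated. Plate 2 has 1 array per environment in each organ, so its differences rest on pairs of single arrays.

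**Figure D3:**
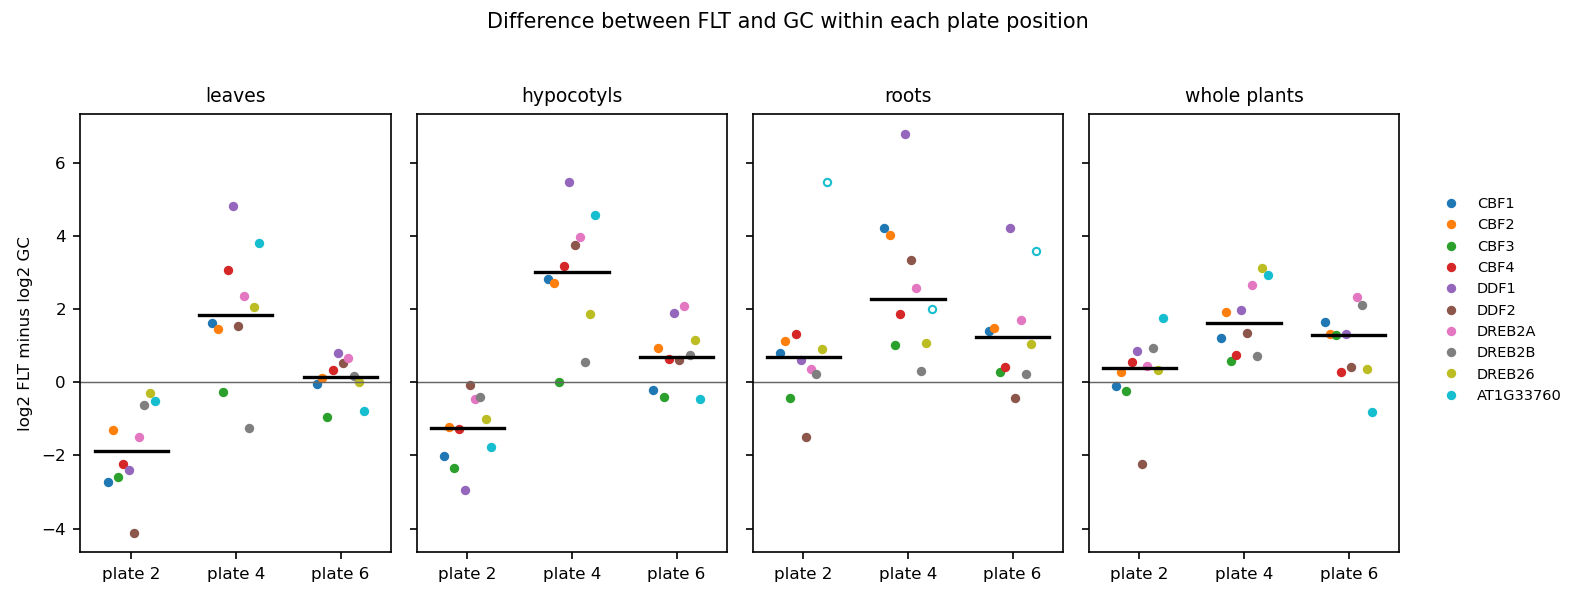
Difference of log2 signal between FLT and GC within plates 2, 4 and 6, in leaves, hypocotyls, roots and whole plants; each point is a gene (a difference of array means), and the black bar is the median of the 10 genes. Open points in roots are AT1G33760, called absent on all root arrays. The median lies highest on plate 4 in each panel and below 0 on plate 2 in leaves and hypocotyls.

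Both environments contributed to this. In FLT, the plate 2 array lay below both plate 4 arrays in each of the 3 organs for 7 of the 10 genes (CBF1, CBF2, CBF3, CBF4, DDF1, DREB2A and DREB26), against 5.27% of all probe sets, and below both plate 6 arrays in each organ for the same 7 genes, against 5.99%. In GC, both plate 4 arrays lay below both plate 6 arrays in each organ for 7 of the 10 (CBF1, CBF2, CBF3, DDF1, DDF2, DREB2A and AT1G33760), against 1.93% of all probe sets, and below the plate 2 array in each organ for 4 (CBF1, CBF2, DDF1 and DREB2A), against 5.32%. MAS5 called DDF1 and AT1G33760 present on 0 of 5 GC root arrays, and DDF2 had signals of 3.84 to 13.9 there. For DDF1, DDF2 and AT1G33760 the root part of the order is thus one of signals near background. Only these orders of plates were counted, and they are those that the values of the 10 genes above had shown. The counts therefore describe the pattern and are no test of it. The organs of a pool came from the same plants and are no independent repeats of each other. In whole plants, plate 2 was the lowest FLT array for 8 of the 10 genes, against 35.3% of all probe sets, and plate 4 the lowest GC array for 7 of the 10, against 32.1%.

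To test the plates, log2 signals were averaged over the 3 organs of each pool, and the 10 pools were compared in limma; this comparison was added after the values had been seen. The spread in this test is that between the 2 pools of a plate, plate 2 has 1 pool per environment that is assumed to vary likewise, and with 1 plate per position and environment a plate cannot be told apart from its position. As geometric mean signals over leaves, hypocotyls and roots, CBF1 had 199 in the FLT pool of plate 2, 1193 and 1177 in those of plate 4 and 1275 and 1119 in those of plate 6. In GC it had 498 in the pool of plate 2, 142 and 178 in those of plate 4 and 979.8 and 854 in those of plate 6. In FLT the pool of plate 2 stood apart from the other 4, and in GC the 2 pools of plate 4 were the lowest. CBF2 repeated this, with 844 in the FLT pool of plate 2, 3070.3 and 3571 in those of plate 4 and 4074 and 4056 in those of plate 6, against 1169.6 in the GC pool of plate 2, 571 and 434 in those of plate 4 and 2232 and 2259 in those of plate 6. DDF1 had 23.3 in the FLT pool of plate 2, 392 and 313 in those of plate 4 and 594 and 572 in those of plate 6, against 69.5 in the GC pool of plate 2, 8.603 and 5.29 in those of plate 4 and 140.0 and 100.3 in those of plate 6. DREB2A had 248 in the FLT pool of plate 2, 864 and 1017 in those of plate 4 and 879 and 1294 in those of plate 6, against 358 in the GC pool of plate 2, 138 and 103 in those of plate 4 and 365 and 398 in those of plate 6.

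**Figure D4:**
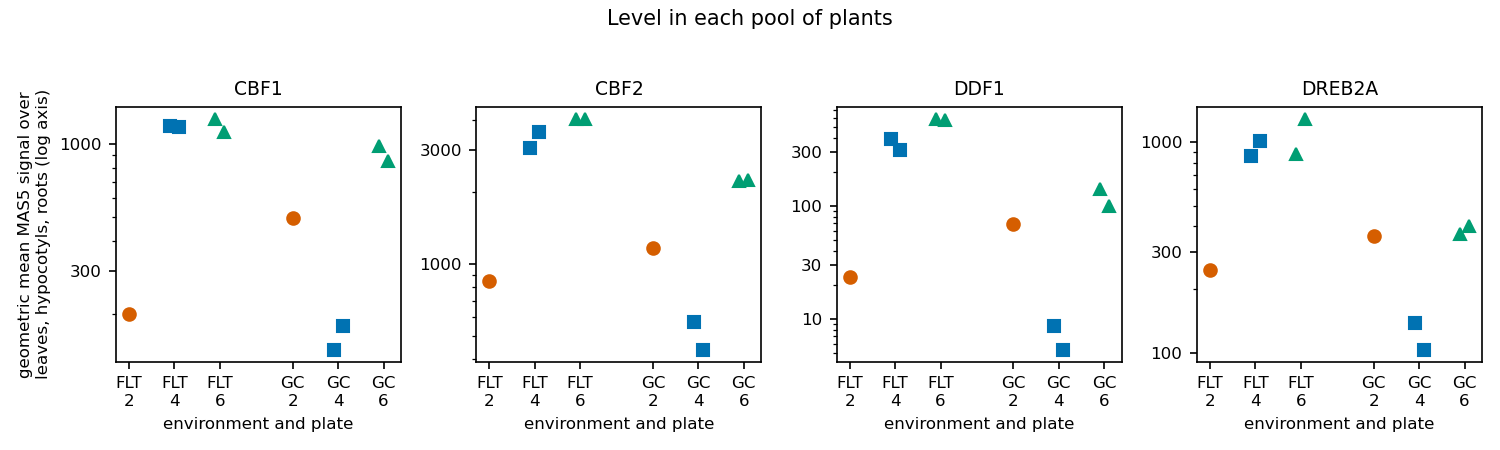
Geometric mean MAS5 signal over leaves, hypocotyls and roots (log axis) of CBF1, CBF2, DDF1 and DREB2A in each of the 10 pools of plants, by environment and plate; each mark is 1 pool, FLT to the left. In each panel the FLT pool of plate 2 lies below the other 4 FLT pools, and the 2 GC pools of plate 4 below the other 3 GC pools.

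Between FLT plates 6 and 2, CBF1 (log2 difference 2.58, SE 0.19, adjusted p = 0.0339), CBF2 (2.27, SE 0.20, 0.0388), CBF3 (2.17, SE 0.25, 0.0495) and DDF1 (4.64, SE 0.36, 0.0339) were higher on plate 6, which is 4 of the 10 genes against 0.426% of all probe sets (limma). DREB2A differed by 2.103 (SE 0.30) and did not pass, with an adjusted p of 0.0879. Between GC plates 6 and 4, CBF1 (2.53, SE 0.16, adjusted p = 0.0139), CBF2 (2.17, SE 0.16, 0.0192) and DDF1 (4.13, SE 0.29, 0.0192) were higher on plate 6, which is 3 of the 10 against 0.514% (limma). The size of the DDF1 difference depends on how the low signals of GC plate 4 are treated, since it was called absent on the GC root arrays and detection in GC leaves and hypocotyls is not known here. With an offset added to all signals, the DDF1 difference was 3.36 between the FLT plates and 1.97 between the GC plates, with adjusted p-values of 4.55e-05 and 0.000141 (limma), and the CBF1 difference was 2.37 and 2.18. Under the offset 7 of the 10 genes passed between GC plates 6 and 4. The share of all probe sets under it is not given here, so these p-values have no background beside them. No gene passed between FLT plates 4 and 2, where CBF1 (2.57), CBF2 (1.97) and DDF1 (3.91) each had an adjusted p of 0.0927 and 0% of all probe sets passed. Between FLT plates 6 and 4 the difference of CBF1 was 0.01 (95% interval -0.39 to 0.41) and that of CBF2 was 0.30 (-0.12 to 0.71), and 0% of all probe sets passed. Between GC plates 2 and 4 no gene passed either (0% of all probe sets), with 1.65 for CBF1 and 3.36 for DDF1 at an adjusted p of 0.204 each.

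The difference between plates in the flight effect itself was tested in the same fit. The FLT minus GC difference was larger on plate 4 than on plate 2 by 4.22 for CBF1 (SE 0.27), 3.20 for CBF2 (SE 0.29) and 7.27 for DDF1 (SE 0.51) on the log2 scale, each with an adjusted p of 0.0526 (limma), so that 0 of the 10 genes passed, against 0.0044% of all probe sets. At an unadjusted p under 0.01 and 1.9-fold 8 of the 10 did, against 1.9% of all probe sets. Between plates 4 and 6 the flight effect differed by 2.51 for CBF1 (SE 0.22, adjusted p = 0.0985), 1.88 for CBF2 (SE 0.23, 0.165) and 3.40 for DDF1 (SE 0.41, 0.165), and none passed, against 0% of all probe sets. The size of both DDF1 values depends on how its GC plate 4 signals, 2.20 to 17.2 over the organs, are treated. In GC roots DDF1 was called absent, and detection in GC leaves and hypocotyls is not known here. Between plates 6 and 2 none passed, against 0%, and the smallest adjusted p was 0.337.

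The organs differed in level for several of the genes, as did 27.9% to 43.6% of all probe sets. Relative to GC leaves, GC roots were lower in CBF1 (log2 difference -2.56, SE 0.75, adjusted p = 0.00668), CBF2 (-2.84, SE 0.65, 0.000703), DREB26 (-1.61, SE 0.36, 0.000637) and AT1G33760, which is 4 of the 10 against 43.6% of all probe sets at an adjusted p under 0.05 (limma, 30 organ arrays). With GC root signals raised to the detection floor used for DDF1, AT1G33760 was 2.37-fold lower in GC roots, where it was called absent. In FLT, roots and leaves did not differ detectably in CBF1 (-0.23, 95% interval -1.77 to 1.32) or CBF2 (-0.78, -2.11 to 0.55), and DREB26 (-1.34, SE 0.36), CBF3 (1.50, SE 0.52) and AT1G33760 passed, against 42.6%. CBF3 was higher in hypocotyls than in leaves in both environments, by 2.02 in FLT (SE 0.52, adjusted p = 0.00287) and 1.66 in GC (SE 0.52, 0.0122), and DREB26 lower, by -1.40 in FLT (SE 0.36, 0.00317) and -1.64 in GC (SE 0.36, 0.000711). These were 2 of the 10 genes in each environment, against 34.4% of all probe sets in FLT and 38.2% in GC. Between roots and hypocotyls AT1G33760 passed in FLT (27.9% of all probe sets), and CBF1 (-3.00), CBF2 (-2.34), CBF3 (-1.58) and AT1G33760 in GC (32.6%). No fold is given for AT1G33760 between roots and hypocotyls. Its mean in GC hypocotyls lay below the mean of the detection floor of the GC root arrays, and it was called absent on all root arrays.

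Whether the flight effect differed between organs was tested as an interaction. None of the 10 genes passed, against 0% of all probe sets in each of the 3 contrasts. The flight effect of CBF1 was larger in roots than in leaves by 2.33 (95% interval 0.15 to 4.51, adjusted p = 0.706, limma) and that of CBF2 by 2.06 (0.18 to 3.94, 0.694). For DREB2A the interval of this difference was -0.89 to 2.61 and for DREB26 it was -0.79 to 1.32, so these data do not show that the calls in roots were particular to roots.

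Most of the genes moved together over arrays. Over the 30 organ arrays, with the mean of each organ and environment subtracted, Pearson's r of log2 signal was 0.933 between CBF1 and CBF2, 0.92 between DDF1 and DREB2A, 0.914 between CBF1 and DDF1, 0.869 between CBF2 and DDF1, and 0.864 and 0.841 between CBF3 and its neighbours CBF2 and CBF1. The median over the 45 pairs was 0.586. DREB2B stood at the low end, with r of -0.188 to DREB26 and 0.0117 to AT1G33760. The arrays share plates and pools, so these values describe the plate pattern again and are given without a test.

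Among 13557 or 13558 other probe sets of 1 locus above the lowest 40% by signal, those most like DDF1 over the 30 arrays, after subtracting organ means, were AT2G35290 (r = 0.97), NAC062 (0.96), AT1G18740 (0.957), AT4G29780 (0.957) and AT3G62260 (0.956). AT2G35290 is annotated as SAUR79 and NAC062 encodes a transcription factor anchored in a membrane. Those most like CBF2 were AT1G74450 (0.964), AT4G29780 (0.962), ACS6 (0.96), which makes the ethylene precursor, DIC2 (0.957), a mitochondrial carrier, and AT3G04640 (0.95), with CBF1 in rank 13 (0.941). Those most like DREB2A were AT1G23710 (0.917), ZAT6 (0.915), a zinc finger protein, NAC062 (0.915), AT5G35735 (0.914) and AT1G15010 (0.91). DDF1, which the low-signal filter left out of these candidates, had an r of 0.914 to DREB2A, which would be rank 5. AT4G29780 thus stood among the first 5 of both DDF1 and CBF2, and NAC062 among those of both DDF1 and DREB2A. The median r of all candidates was -0.0559 for DDF1, -0.0704 for DREB2A and -0.0469 for CBF2.

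The known targets of these factors were examined in the same comparisons. Of 13 measured CBF targets, 1 was higher in FLT roots at the study's thresholds (1.06% of all probe sets) and 0 were lower (0.264%). The higher 1 was ZAT10 (log2 fold change 1.65, SE 0.47, adjusted p = 0.412, limma), which is also on the touch and wound list below. GOLS3, a galactinol synthase, was the 1 that was lower in FLT leaves (-1.84, SE 0.35, 0.274) and in FLT hypocotyls (-1.07, 0.703), against 0.84% and 0.339% of all probe sets. The median log2 fold change of these targets was 0.13 in roots, -0.08 in hypocotyls, -0.15 in leaves and 0.33 in whole plants. RD29A, a target of both CBF proteins and DREB2A, had 209 to 461 in FLT leaves and 401 to 578 in GC leaves, and 251 to 322 in FLT roots and 196 to 278 in GC roots. Of 8 measured DREB2A targets 0 met the thresholds in any organ or in whole plants, with medians of 0.29 in roots, 0.17 in hypocotyls, 0.21 in leaves and 0.14 in whole plants. Between FLT plates 6 and 2, 0 CBF targets passed at an adjusted p under 0.05 (0.426% of all probe sets). Between GC plates 6 and 4 1 did, ZAT10 (1.84), against 0.514%, while 0 DREB2A targets passed in either. The median differences were -0.01 and 0.09 for CBF targets and -0.01 and 0.23 for DREB2A targets, against 2.14 and 2.16 for the 10 genes.

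Of 17 measured regulators of the CBF genes, 2 were higher in FLT roots at the study's thresholds, against 1.06% of all probe sets. They were MYB15 (2.47, adjusted p = 0.357, limma), a repressor of CBF transcription, and ZAT12 (1.71, 0.263), a zinc finger repressor of CBF genes. Both are also on the touch and wound list below. MYB15 and ZAT12 also passed between FLT plates 6 and 2 (0.426% of all probe sets) and between GC plates 6 and 4 (0.514%). ICE1, the CAMTA factors and the other regulators did not pass there. Of 11 regulators of DREB2A, among them the DRIP ubiquitin ligases, 0 met the thresholds in FLT against GC and 0 passed between those plates. Of 41 other measured DREB subfamily genes, ORA47 (3.32 in roots), which is known from wounding and jasmonate, AT1G77640 (1.76), AT1G44830 (1.59), AT4G32800 (0.98) and AT1G22810 were higher in FLT roots at the study's thresholds (1.06% of all probe sets). ORA47 and AT1G19210 passed between both pairs of plates. AT1G22810 had signals of 7.25 to 50.6 in FLT roots and 1.53 to 9.71 in GC roots, all below the detection floor of the GC root arrays, so no fold is given for it. In other organs AT1G64380 was lower in FLT leaves (-1.45), ERF38 was lower in FLT hypocotyls (-1.52) and DREB2D was higher in FLT whole plants, at low signals of 46.9 to 82.4 in FLT and 2.095 to 6.58 in GC, for which no fold is given.

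A list of 16 genes known for a rapid rise after touch and wounding was examined in the same comparisons. It was chosen with earlier results of these data known. The study had already called some of its genes from arrays of this run, among them WRKY40, MYB15, JAZ1 and TCH4. The counts below therefore describe the list and are no test of it. In roots 12 of the 16 were higher in FLT at the study's thresholds (1.06% of all probe sets), among them WRKY40 (2.80), CML37 (2.73), TCH4 (2.24) and CAF1a (2.24), and their summed signal was 21633 to 59530 in FLT roots and 9535 to 20777 in GC roots. ERF104 was higher in FLT leaves (1.21) and JAZ7 in FLT hypocotyls (2.78), and 0 of the 16 met the thresholds in whole plants. Between FLT plates 6 and 2, 5 passed (WRKY40, WRKY33, ZAT12, CML37 and MYB15; median of the list 1.23), against 0.426% of all probe sets, and between GC plates 6 and 4, 10 passed (median 1.51), against 0.514%. Of 11 circadian clock genes 0 passed in either comparison (medians -0.07 and 0.01) and 0 met the study's thresholds between FLT and GC. The part of rapid touch and wound responses in the values of the 10 genes was not tested.

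**Figure D5:**
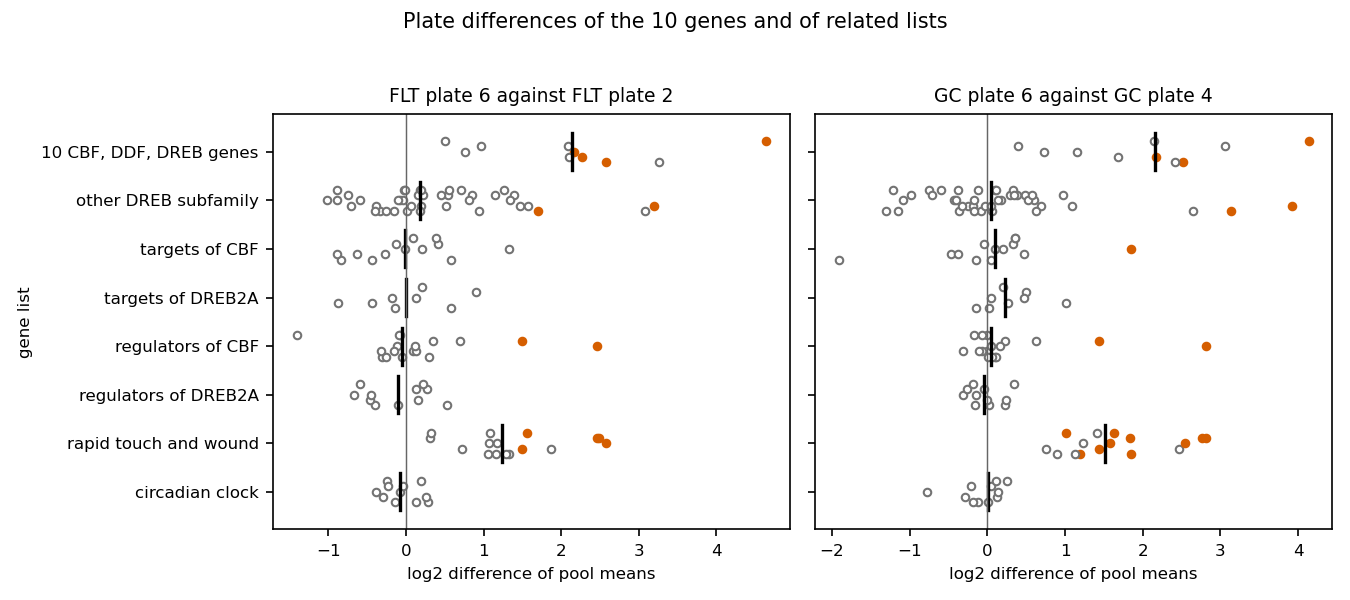
Log2 difference of pool means (horizontal axis) between FLT plate 6 and FLT plate 2 and between GC plate 6 and GC plate 4 for the 10 genes and 7 lists of related genes; each point is a gene, filled points had an adjusted p under 0.05 from limma, and the black bar is the median of the list. The bars of the 10 genes lie at 2.14 and 2.16 and those of the rapid touch and wound list at 1.23 and 1.51, while those of the other 6 lists lie closer to 0. The genes and lists were chosen with earlier results of these data known.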

How the data were processed

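The authors made MAS5 signal intensity values on a linear scale with the Affymetrix Expression Console and deposited them per array; versions are not given in the sources used here. RNA was amplified with the NuGEN Ovation Pico system. The authors also deposited counts of present calls, p-values, q-values and log2 fold changes per probe set; of these only the present counts in roots were used here. Log2 signals, with no offset, of 22746 probe sets (64 controls left out) were compared between FLT and GC within each organ and in whole plants with limma 3.58.1 (lmFit and eBayes) in R 4.3.3, with Benjamini-Hochberg adjustment. Organs were compared, and the flight effect tested as an interaction, over 30 arrays with the pool as a random block (correlation 0.0306). In all, 22 comparisons were fitted. Low-signal probe sets are the 40% with the lowest mean of log2 values in an organ. Arrays give no counting depth, so the number of arrays limits the precision. No 2 arrays were duplicates (highest correlation 0.92949).

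The text names the 10 genes, those of each related list that met the study's thresholds in a comparison, or otherwise up to 4 with the smallest p in roots, and the 5 probe sets most like DDF1, DREB2A and CBF2. The lists are targets of CBF, targets of DREB2A, regulators of CBF, regulators of DREB2A, other DREB subfamily, rapid touch and wound, circadian clock, leaf markers and root markers; 6 loci stand on more than 1 list. The genes and lists were chosen with earlier results of these data known. The scripts were tested on simulated data. Alternatives were quantile normalization, scaling to the 75th percentile, an offset of 36.9 before log2, a filter on low-signal probe sets, the methods' t-test, limma's trend and robust settings, blocks for replicate or plate, plate means, 1 fit for all organs, single plates and leaving out each array. Plate comparisons on pool means, with 4 residual degrees of freedom, and fits on plate 4, plate 6 or both alone were added after the values had been seen.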

Additional observations from a re-analysis of the deposited data

Results flagged for a closer look

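Of 60 groups of 5 arrays examined (10 genes, 3 organs, FLT and GC), 11 held 1 array far from the other 4 by Dixon's test. Its nominal rate of about 1 in 20 holds for independent arrays and is no background for this count. In each group plate 2 gave 1 array, plates 4 and 6 gave 2 each, and most of the genes moved together. The share over all probe sets is not given here. In 9 of them this was the FLT array of plate 2, low in each case. The values were a signal of 133 for CBF1 in leaves, 186 for CBF1 in roots, 1059 for CBF2 in leaves, 890.3 for CBF2 in hypocotyls, 24.1 for CBF3 in leaves, 22.3 for DDF1 in hypocotyls, 19.7 for DDF1 in roots, 2.43 for DDF2 in hypocotyls and 221 for DREB2A in hypocotyls. The other arrays were a GC leaf array of plate 6 (replicate 5), high in CBF3 at 568, and a GC hypocotyl array of plate 4 (replicate 3), low in CBF4 at 2.42. The 3 organs of a pool came from the same plants, so the 9 flags of plate 2 come from 1 FLT pool.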

How the results depend on the processing

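Counts of genes at the study's thresholds (higher in FLT) moved as follows. In leaves, where the count was 0, it was 6 on plate 4 alone. In hypocotyls, where it was 1, it was 0 with the methods' t-test, with a replicate block, with plate as a random block and on plate means, 7 on plate 4 alone and 3 on plates 4 and 6. In roots, where it was 6, it was 2 on plate means (DREB26 and AT1G33760), 4 by the methods' t-test and 4 to 6 under each other setting run. In whole plants, where it was 0, it was 1 with limma's trend and robust settings. At an adjusted p under 0.05, the count between FLT roots and FLT hypocotyls was 2 with an offset, in place of 1. Leaving out 1 array at a time gave 0 in leaves throughout, 0 to 4 in hypocotyls, 3 to 6 in roots (3 without FLT roots replicate 3) and 0 to 3 in whole plants. Over the same omissions the count among all 22746 probe sets was 45 to 108 in leaves and 77 to 139 in hypocotyls. It was 181 to 298 in roots and 108 to 211 in whole plants. The share of all probe sets under the other settings is not given here, so those counts have no background beside them. The cause of these moves was not tested.

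The replicate number did not pair the arrays (correlations of same-numbered deviations between -0.0881 and 0.0388 in organs, and 0.107, 0.0377 and 0.0605 in whole plants). With a replicate block the count was 0 in hypocotyls and 5 in roots, where CBF1 was lost.

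Of the log2 fold changes of single genes between FLT and GC, over all settings other than left-out arrays, 399 values kept direction and side of the threshold, 15 newly passed it, 18 no longer passed it and 14 changed sign. With the offset DDF2 was 0.019 in leaves and 0.11 in whole plants. With quantile normalization DDF2 was 0.44 in leaves. CBF1 in leaves was -0.039 with plate as a random block and -0.39 on plate means. On plate 4 alone DDF2 was 1.53 in leaves, and on plates 4 and 6 it was 1.02. On plate 6 alone CBF1 was -0.052, DDF2 0.52, DREB2B 0.18 and AT1G33760 -0.78 in leaves, CBF1 -0.20 and AT1G33760 -0.47 in hypocotyls, and DDF2 -0.43 in roots. With single arrays left out CBF1 ran from -0.30 to 0.68, DDF2 from -0.70 to 0.57 and DREB2B from -1.13 to 0.24 in leaves, and DDF2 from -0.72 to 0.97 in whole plants.

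Between organs, the flight effect of CBF4 was -0.25 (roots against leaves) and -0.038 (hypocotyls against leaves) with quantile normalization, and that of AT1G33760 with the offset -0.35 (roots against leaves), -0.30 (roots against hypocotyls) and -0.048 (hypocotyls against leaves). Between GC hypocotyls and GC leaves, DDF2 was 0.44 and DREB2B 0.18 with quantile normalization, and CBF4 -0.031 and DDF1 -0.15 with the offset. DDF1 was 0.037 between FLT roots and FLT leaves with the offset.

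For the plate comparisons, the offset and the use of single arrays in place of pools called more genes at an adjusted p under 0.05. The fit on single arrays had the pool as a random block, with the same correlation for all probe sets. With the offset 7 of the 10 passed between FLT plates 4 and 2, 2 between FLT plates 6 and 4, 4 between GC plates 2 and 4 and 7 between GC plates 6 and 4. In the flight effect 4 passed between plates 4 and 6, 7 between plates 4 and 2 and 1 between plates 6 and 2. With single arrays 6 passed between FLT plates 4 and 2, 4 between GC plates 2 and 4 and 6 between GC plates 6 and 4, and in the flight effect 4, 6 and 3. With quantile normalization 2 passed for the flight effect between plates 4 and 2. The share of all probe sets under these settings is not given here, so these counts have no background beside them. The number of arrays and, for CBF4, DDF1, DDF2, DREB2B and AT1G33760, signals near background limit these values.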
